A study of Mus musculus with 3 samples.

Results

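Junctions between the switch region Sμ and the switch region Sε, the acceptor of class switching to IgE, were taken from a genome-wide map of class switch junctions in mouse B cells. A junction was counted as an Sμ to Sε junction when its prey end, the first aligned base on the far side of the join, lay in the authors' Sε window of 10 kb on chromosome 12 of mm9, on either strand. The prey ends of the 3 libraries ran from 114507293 to 114516744. There were 1061 such junctions among 2995 mapped junctions in 3 libraries. DNA-PKcs-/- replicate 5 held 123 of its 842 junctions in Sε, DNA-PKcs PQR/PQR replicate 1 held 794 of 1681 and PQR/PQR replicate 2 held 144 of 472. Single lines were used for 122, 789 and 144 of them, with read bounds and sequence. The other lines are not used here.

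Splenic B cells lacking CD43 were the source of all libraries. They came from mice of strain 129 whose IgH and IgK loci were preassembled, which all groups share. Anti-CD40 (1 ng/mL) together with IL-4 (20 ng/mL) activated them over 4 days of culture. One group lacked DNA-PKcs (DNA-PKcs-/-, 1 library), and the other was homozygous for the DNA-PKcs PQR allele (PQR/PQR, 2 libraries), which alters a phosphorylation cluster of the kinase. The comparison asks whether switch junctions differ between cells with this cluster changed and cells without the kinase. Wild-type cells are not analysed here, so whether either genotype alters junctions from the normal state cannot be told. No label tells if separate mice gave the PQR/PQR libraries. The authors also deposited 1 pool per genotype, in which 656 of 12662 junctions (DNA-PKcs-/-) and 959 of 4167 junctions (PQR/PQR) lay in Sε. The pools contain the 3 libraries, so what remains after taking these out is given as a description only.

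In class switch recombination the enzyme AID starts breaks in Sμ and in a downstream switch region, and joining the broken ends puts a new constant region behind the variable region. The DNA between them is lost as a circle when the join is deletional, and is turned around when it is inverted. IL-4 with CD40 signalling drives B cells towards IgG1 and IgE, whose acceptors are Sγ1 and Sε. DNA-PKcs belongs to the non-homologous end joining machinery, which can seal ends directly, with few inserted bases, or at a short stretch of bases that both ends share (microhomology, MH).

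The bait sequence is shown because every Sε junction starts from it, with capitals marking AGCT, a preferred target of AID. It is the majority base of the reads over chr12:114669138-114669257 of mm9, minus strand, which is the reading direction of the bait.
Sμ bait: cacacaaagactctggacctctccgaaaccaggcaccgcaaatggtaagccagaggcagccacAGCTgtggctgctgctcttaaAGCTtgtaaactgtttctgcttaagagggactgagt
A stretch of Sε close to the middle of the junctions is shown for its repeats, again with AGCT in capitals. It was read from the prey part of a junction of PQR/PQR replicate 1 at chr12:114514155-114514354, minus strand.
Sε: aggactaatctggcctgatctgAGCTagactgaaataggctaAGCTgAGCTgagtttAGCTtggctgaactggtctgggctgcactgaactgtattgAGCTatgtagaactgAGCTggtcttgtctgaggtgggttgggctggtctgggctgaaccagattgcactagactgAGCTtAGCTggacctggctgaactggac
These 200 bases of Sε held AGCT 8 times, and 51.5% of them were G or C, against 2 copies of AGCT in the 120 bases of bait.

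Individual reads show the kinds of join, each given from the nested primer to 50 bases of prey. The longest MH join of DNA-PKcs-/- replicate 5 and 1 of the 2 longest of PQR/PQR replicate 1 are shown first, with the overlap of the bait and prey alignments in capitals.
DNA-PKcs-/- replicate 5, prey at 114512181: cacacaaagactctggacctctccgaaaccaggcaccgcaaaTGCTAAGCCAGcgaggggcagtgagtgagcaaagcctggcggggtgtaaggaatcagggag
PQR/PQR replicate 1, prey at 114512759: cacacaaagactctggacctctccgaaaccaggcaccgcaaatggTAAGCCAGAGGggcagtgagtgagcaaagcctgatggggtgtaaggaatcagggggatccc
Both overlaps were 11 bp, and the longest listed in the DNA-PKcs-/- pool was 13 bp. The overlap of the DNA-PKcs-/- read differs from the bait sequence above, so an overlap as the aligner draws it can hold a mismatch. Such mismatches were rare, in 1 of 84 MH joins checked in DNA-PKcs-/- replicate 5, and for PQR/PQR in 1 of 464 (replicate 1) and 0 of 90 (replicate 2).

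The longest insertion in the Sε lists of the same libraries is shown next, with the bases that belong to neither alignment in capitals.
DNA-PKcs-/- replicate 5, prey at 114514988: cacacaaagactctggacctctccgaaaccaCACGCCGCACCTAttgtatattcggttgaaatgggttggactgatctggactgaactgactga
PQR/PQR replicate 1, prey at 114514067: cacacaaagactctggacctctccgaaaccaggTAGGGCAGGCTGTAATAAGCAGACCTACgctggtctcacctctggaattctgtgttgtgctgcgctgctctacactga
The insertions were 13 and 28 bases long, and the longest in the Sε list of the DNA-PKcs-/- pool was also 28. A separate sheet of large insertions adds 1 Sε line for PQR/PQR replicate 1, not shown. An inverted join, in which the prey is read on the plus strand, is shown with its 3 bp of MH in capitals.
DNA-PKcs-/- replicate 5, inverted prey at 114514019: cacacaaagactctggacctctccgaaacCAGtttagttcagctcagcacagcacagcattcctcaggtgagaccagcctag
The last read is a direct join, with the first prey base in capitals. It is 1 of 3 junctions that PQR/PQR replicate 1 listed more than once, each of them with 2 lines.
PQR/PQR replicate 1, prey at 114513228: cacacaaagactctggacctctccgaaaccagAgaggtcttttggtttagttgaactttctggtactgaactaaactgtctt

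Read names give 1 sequencing run for DNA-PKcs-/- replicate 5 together with PQR/PQR replicate 1, and another for PQR/PQR replicate 2. Of the Sε junctions, 3 had the same bait end, prey end and strand in DNA-PKcs-/- replicate 5 as in PQR/PQR replicate 1. Another 3 were found in both PQR/PQR libraries, and 0 in DNA-PKcs-/- replicate 5 as in PQR/PQR replicate 2. None of these had the same prey length in both libraries. Each of the 6 measures below was also computed without these junctions, and no call changed. The aligned prey of Sε junctions had a median of 122.5 bp in DNA-PKcs-/- replicate 5, 149 bp in PQR/PQR replicate 1 and 111.5 bp in PQR/PQR replicate 2, and was under 50 bp in 9.84%, 10.8% and 18.1% of them.

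A set of 6 measures of the Sε junctions were compared between libraries by two-sided Fisher's exact tests, and 1 of the 6 was called, the share on the far side of the window. A call needed DNA-PKcs-/- replicate 5 to be higher, or lower, than both PQR/PQR libraries with Benjamini-Hochberg adjusted p-values, taken over 36 tests, below 0.05. The tests treat junctions as independent and compare libraries, not genotypes. With 1 library against 2 there are 3 ways to split them, and the smallest exact p between genotypes would be 0.333. Between the PQR/PQR libraries, 0 of the 6 measures passed, the smallest adjusted p being 0.383 by Fisher's exact test.

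**Figure D1:**
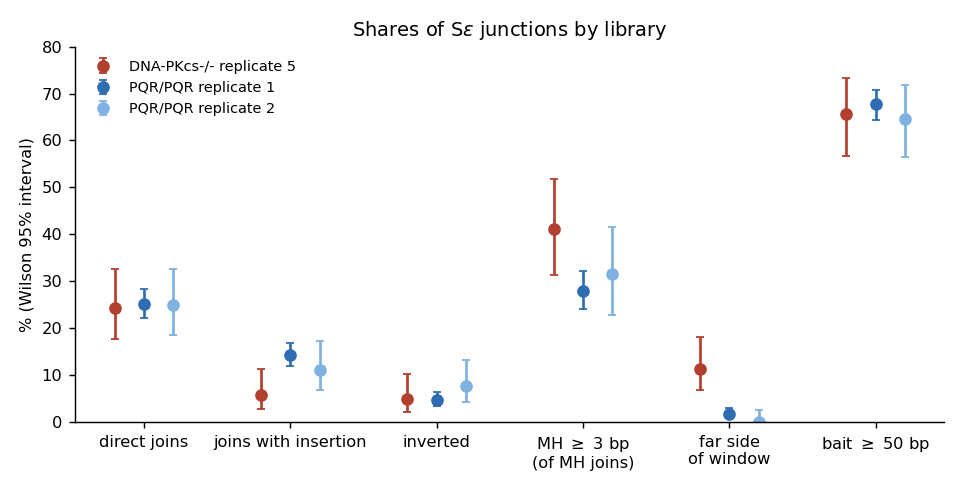
The 6 shares of the Sε junctions in percent (y axis) for DNA-PKcs-/- replicate 5 (red), PQR/PQR replicate 1 (dark blue) and PQR/PQR replicate 2 (light blue), as points with Wilson 95% intervals. DNA-PKcs-/- replicate 5 stands above both PQR/PQR libraries on the far side of the window, at 11.4% against 1.76% and 0%, while direct joins lie between 24.4% and 25.2% in all 3.

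The Sε junctions of all 3 libraries gathered in the same part of the window, and a larger share of those of DNA-PKcs-/- replicate 5 lay far from Sμ. The median prey end was at 114514001 in DNA-PKcs-/- replicate 5, 114514313 in PQR/PQR replicate 1 and 114514208 in PQR/PQR replicate 2. The interquartile range was 1512 bp, 1150 bp and 1040 bp. The kilobase from 114514001 to 114515000 was the fullest in each library and held 36.6%, 46.0% and 41.7% of the junctions.

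Because the locus is read on the minus strand, lower coordinates lie further from Sμ and closer to the IgE constant gene. On the far side of the window, past its middle as seen from Sμ, DNA-PKcs-/- replicate 5 had 14 of 123 junctions (11.4%, Wilson 95% CI 6.90 to 18.2). PQR/PQR replicate 1 had 14 of 794 (1.76%, 1.05 to 2.94), and PQR/PQR replicate 2 had 0 of 144, at which up to 2.08% cannot be told from 0 (3 counts). The intervals cover counting error only and leave out the spread between libraries or mice. The reads also carried no molecular identifiers. The share of DNA-PKcs-/- replicate 5 was 9.62 percentage points higher than PQR/PQR replicate 1 (95% CI 4.99 to 16.5, adjusted p = 8.43e-05, Fisher's exact test). It was 11.4 points higher than PQR/PQR replicate 2 (6.20 to 18.2, adjusted p = 2.29e-04, Fisher's exact test). The first of these comparisons is within 1 sequencing run. In the remaining junctions of the authors' DNA-PKcs-/- pool the share was 5.82% (31 of 533, 4.13 to 8.14). That lay below DNA-PKcs-/- replicate 5 and above both PQR/PQR libraries. None of the 529 listed lines of this remainder came from the run of DNA-PKcs-/- replicate 5 and PQR/PQR replicate 1. Its baits ran past the AflII site, described below, in 21.2%, against 2.46%, 1.77% and 0.694% in the 3 libraries. Whether this moves the share was not tested. In the remainder of the PQR/PQR pool the share was 9.52% (2 of 21, 2.65 to 28.9), too few junctions to place it. Of these 21 reads, 20 had a further segment between bait and prey, a kind absent from the libraries' lists, so they are not comparable. The DNA-PKcs-/- remainder held 16 such reads among 529. With the whole DNA-PKcs-/- pool in place of replicate 5 the difference from the mean of the PQR/PQR libraries was 5.98 points in place of 10.5 and was still called. That pool contains replicate 5, which gave 14 of its 45 junctions on the far side, so this is not a separate test.

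The larger share was not confined to the far end of the window. The kilobase just inside the middle, from 114512001 to 114513000, held 16 of 123 junctions in DNA-PKcs-/- replicate 5 (13.0%), against 31 of 794 (3.90%) for PQR/PQR replicate 1 and 7 of 144 (4.86%) for PQR/PQR replicate 2. With the boundary moved to its upper edge the difference grew to 18.3 points, and with the boundary 1000 bp further from Sμ it was 6.00 points. Both were called. On the side towards Sμ, the kilobase from 114515001 to 114516000 held 13.0%, 19.9% and 18.8% of the junctions.

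**Figure D2:**
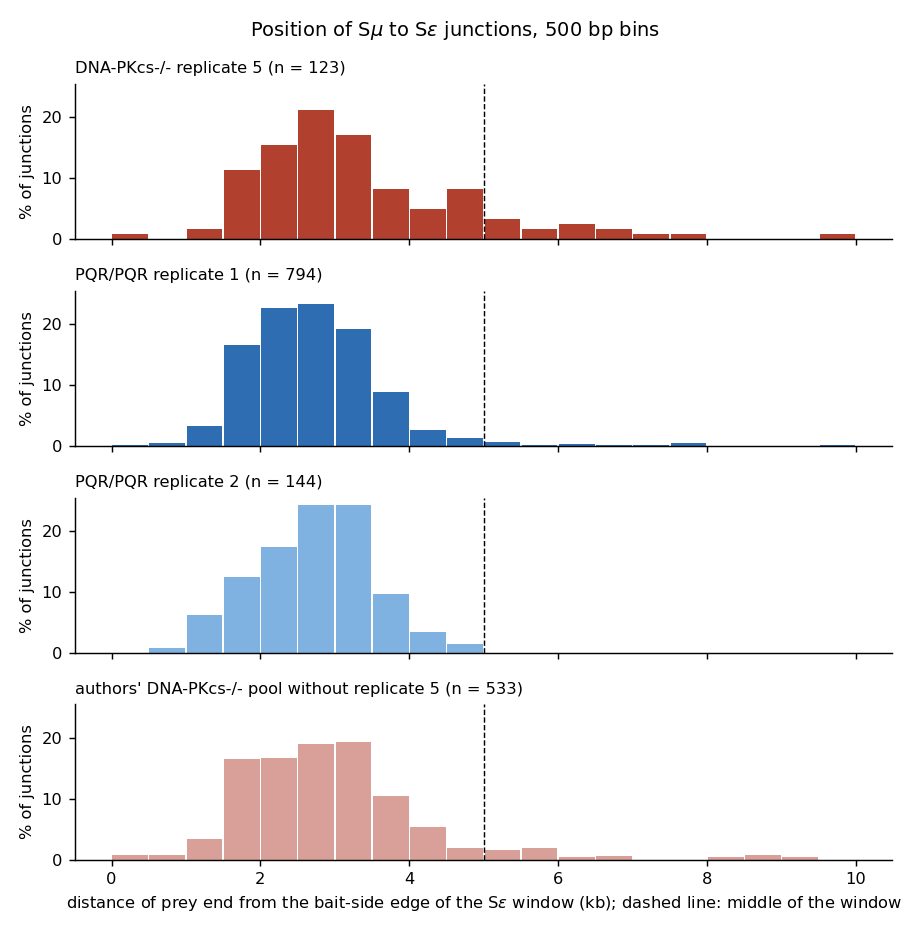
Percent of Sε junctions (y axis) in bins of 500 bp by distance of the prey end from the edge of the window nearest to Sμ in kb (x axis), for the 3 libraries and for the authors' DNA-PKcs-/- pool without replicate 5. The dashed line marks the middle of the window, past which lie 14 of 123, 14 of 794, 0 of 144 and 31 of 533 junctions from top to bottom.

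The junctions of the far side were too few to describe by structure beyond their counts. In DNA-PKcs-/- replicate 5, 13 had lines, of which 4 were direct, 3 had an insertion, 6 had MH and 3 were inverted. In PQR/PQR replicate 1, 13 had lines too, of which 0 were direct, 3 had an insertion, 10 had MH and 1 was inverted. The read with the longest overlap in DNA-PKcs-/- replicate 5, printed above, has its prey end about in the middle of the window, on the side towards Sμ.

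For deletional junctions the distance between bait end and prey end gives the length of DNA removed. Its median was 155166 bp in DNA-PKcs-/- replicate 5, 154892 bp in PQR/PQR replicate 1 and 155031 bp in PQR/PQR replicate 2, and it ranged from 153054 to 161890 bp over the 3 libraries. The order of the medians is that of the prey positions.

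Within the window, prey ends were scattered rather than piled up. The 123 junctions of DNA-PKcs-/- replicate 5 used 120 positions, PQR/PQR replicate 1 used 677 for 794 and PQR/PQR replicate 2 used 140 for 144. The most junctions at any position were 2, 3 and 2, reached at 3, 17 and 4 positions. Between DNA-PKcs-/- replicate 5 and PQR/PQR replicate 1, 22 positions were shared, 18.3% of the former's and 3.25% of the latter's. The PQR/PQR libraries shared 42 positions, 6.20% of replicate 1's and 30% of replicate 2's, and DNA-PKcs-/- replicate 5 and PQR/PQR replicate 2 shared 6, 5% and 4.29%.

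The first 3 of the most used positions per library are printed with the reference bases listed around them, 10 on each side, on the plus strand, with no base marked.
114513899, DNA-PKcs-/- replicate 5: gtccagtccaaccaaatcta
114514171, DNA-PKcs-/- replicate 5: tcagccaggtccagctaagc
114514241, DNA-PKcs-/- replicate 5: caagaccagctcagttctac
114513709, PQR/PQR replicate 1: gtctagcccagcccctctca
114513799, PQR/PQR replicate 1: tcttagccccactcaactta
114514019, PQR/PQR replicate 1: agctgagctcagtttagttc
114513979, PQR/PQR replicate 2: aacccagcctagctcagctc
114514189, PQR/PQR replicate 2: gctcagtctagtgcaatctg
114514773, PQR/PQR replicate 2: atggtccagcccaggttaac
The position 114514241 had 2 junctions in DNA-PKcs-/- replicate 5 and 1 in PQR/PQR replicate 1, and 114514019 had 1 and 3. The other positions of DNA-PKcs-/- replicate 5 in this list had 0 junctions in both PQR/PQR libraries.

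AGCT was about as common inside the Sε prey as at its ends. In each library its share was above that of Sγ1 both at the ends and inside the prey, with no test made. AGCT, which reads the same on both strands, was found in the 20 bases around 40.2% of the prey ends of DNA-PKcs-/- replicate 5 (95% CI 31.9 to 49.0), 44.9% of those of PQR/PQR replicate 1 (41.4 to 48.4) and 43.1% of those of PQR/PQR replicate 2 (35.3 to 51.2). Windows of the same length further inside the prey, starting 40 bases from the end, held it in 35.2%, 49.2% and 45.0% of cases. The same count at Sγ1 prey ends was 23.2%, 31.9% and 32.5%, and inside the Sγ1 prey 23.8%, 25.8% and 22.4%, from reads of the same libraries.

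GGGCT, on either strand, was found around 25.4%, 25.1% and 26.4% of the Sε prey ends of the 3 libraries in the same order, and inside the prey in 13.3%, 23.8% and 24.3% of windows. At Sγ1 prey ends it was found around 3.79%, 3.33% and 2.60%, and inside the Sγ1 prey in 2.33%, 1.75% and 5.17% of windows. GAGCT, which contains AGCT, was found around 29.5%, 34.3% and 32.6% of Sε prey ends, and CTGGG, which can overlap GGGCT, around 25.4%, 28.8% and 32.6%. ACTGG was found around 15.6%, 17.1% and 12.5%. GGGGT was the least common, at 6.56%, 2.92% and 2.78%. Inside the Sε prey, GAGCT was found in 28.6%, 40.4% and 34.2% of windows and CTGGG in 23.8%, 27.4% and 34.2%. ACTGG was found there in 14.3%, 12.7% and 16.2%, and GGGGT in 4.76%, 4.19% and 3.60%. These counts are a description of the letters near the ends and were not tested.

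Direct Sε joins took up shares of the 3 libraries that lay within counting error of each other. They made up 24.4% of the Sε junctions of DNA-PKcs-/- replicate 5 (30 of 123), 25.2% of those of PQR/PQR replicate 1 (200 of 794) and 25% of those of PQR/PQR replicate 2 (36 of 144). The difference of DNA-PKcs-/- replicate 5 from PQR/PQR replicate 1 was -0.799 points, with a 95% interval from -8.23 to 7.98 points. Against PQR/PQR replicate 2 the interval was -10.8 to 9.84 points, so a difference of that size would not have been detectable. In the remaining DNA-PKcs-/- pool the direct share was 18.4% (98 of 533, 15.3 to 21.9). The difference from the mean of the PQR/PQR libraries, -0.704 points, became -5.58 with the whole pool in place of replicate 5 (smallest adjusted p = 0.0696, Fisher's exact test) and -4.17 for prey of 50 bp or more, and neither was called.

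MH joins made up 86, 481 and 92 of the Sε junctions, and the overlap was counted on 85, 479 and 92 of them with lines. Among these, the share with 3 bp or more was highest in DNA-PKcs-/- replicate 5, and the difference was not called. MH of 3 bp or more was found in 35 of 85 MH joins of DNA-PKcs-/- replicate 5 (41.2%, 31.3 to 51.8), 134 of 479 of PQR/PQR replicate 1 (28.0%, 24.1 to 32.2) and 29 of 92 of PQR/PQR replicate 2 (31.5%, 22.9 to 41.6). The difference from PQR/PQR replicate 1 was 13.2 points (2.49 to 24.5, adjusted p = 0.121, Fisher's exact test). The difference from PQR/PQR replicate 2 was 9.65 points (-4.44 to 23.3, adjusted p = 0.448, Fisher's exact test).

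The lengths differ most at the short end. A single base of MH was found in 23 of 85 MH joins of DNA-PKcs-/- replicate 5 (27.1%), 220 of 479 of PQR/PQR replicate 1 and 44 of 92 of PQR/PQR replicate 2. Lengths of 2, 3 and 4 bp were found in 27, 15 and 13 MH joins of DNA-PKcs-/- replicate 5, so that 2 bp was its most common length, while 1 bp was the most common in both PQR/PQR libraries. With lengths grouped as 1, 2, 3, and 4 bp or more, DNA-PKcs-/- replicate 5 differed from PQR/PQR replicate 1 (adjusted p = 0.0192, two-sided exact test), but not by the test from PQR/PQR replicate 2 (adjusted p = 0.146, two-sided exact test). The PQR/PQR libraries did not pass it against each other (adjusted p = 0.749, two-sided exact test). With the share of MH joins having 2 bp or more in place of 3, which was 62 of 85 against 259 of 479 and 48 of 92, the difference from the mean of the PQR/PQR libraries was 19.8 points and was called, with a larger adjusted p of 0.0378 by Fisher's exact test.

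Mean MH over MH joins alone was 2.61 ± 0.187 bp in DNA-PKcs-/- replicate 5 (SEM over 85 joins), 2.04 ± 0.0624 bp in PQR/PQR replicate 1 (479 joins) and 2.04 ± 0.129 bp in PQR/PQR replicate 2 (92 joins). In the remaining DNA-PKcs-/- pool it was 2.65 ± 0.0870 bp (365 joins), and 46.3% of its MH joins had 3 bp or more (41.3 to 51.4). Overlaps of 5 bp or more were found in 7, 22 and 5 MH joins of the 3 libraries.

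**Figure D3:**
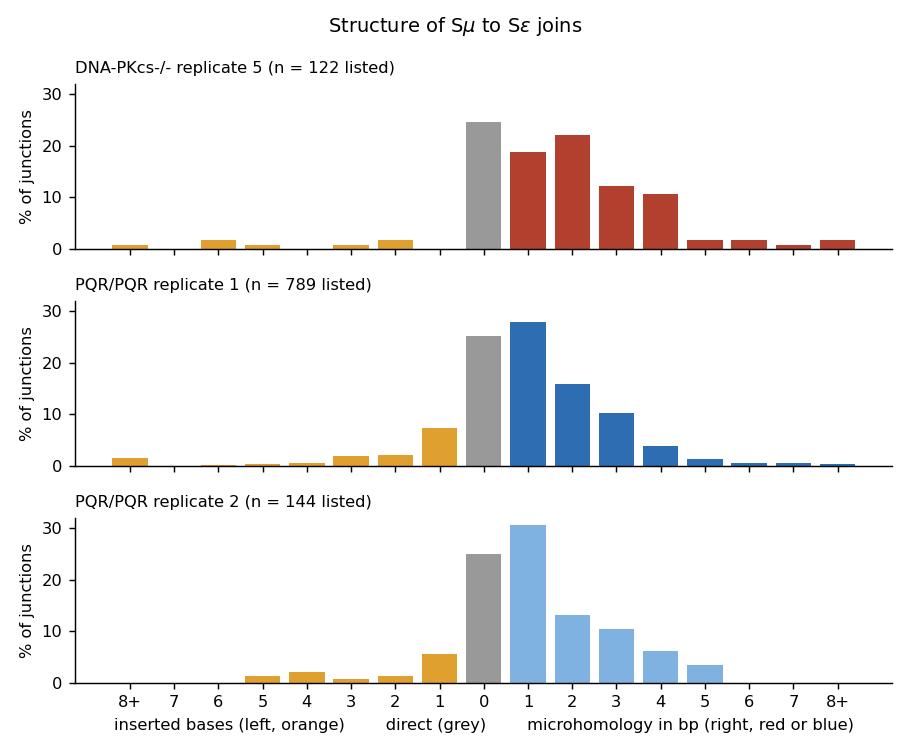
Percent of listed Sε junctions (y axis) by inserted bases (orange, left of 0), as direct joins (grey, at 0) or by MH length in bp (red or blue, right of 0), for the 3 libraries; lengths of 8 and more are joined. The tallest MH bar is at 2 bp in DNA-PKcs-/- replicate 5 (27 joins) and at 1 bp in both PQR/PQR libraries (220 and 44 joins).

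The 5 most frequent overlaps of 2 bp or more were strings of 2 or 3 bases, each found more than once in the Sε stretch printed above. Over the 3 libraries, GC was the most frequent overlap of 2 bp or more (35 joins), followed by AG (32), CT (22), GCT (20) and CTG (18). Among overlaps of 4 bp or more, GCTG was found 17 times, in 4 joins of DNA-PKcs-/- replicate 5, 11 of PQR/PQR replicate 1 and 2 of PQR/PQR replicate 2. AGGC followed with 7 joins and AGCT with 6. These 4 bp overlaps came from 20, 53 and 14 joins with 15, 33 and 12 different strings. G or C made up 61.3% of all MH bases in DNA-PKcs-/- replicate 5, 59.6% in PQR/PQR replicate 1 and 61.2% in PQR/PQR replicate 2.

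Insertions were found in 7 of 123 Sε junctions of DNA-PKcs-/- replicate 5 (5.69%, 2.78 to 11.3), 113 of 794 of PQR/PQR replicate 1 (14.2%, 12.0 to 16.8) and 16 of 144 of PQR/PQR replicate 2 (11.1%, 6.96 to 17.3). The difference of DNA-PKcs-/- replicate 5 from PQR/PQR replicate 1 was -8.54 points (-12.4 to -2.51, adjusted p = 0.0567, Fisher's exact test), which did not pass. Against PQR/PQR replicate 2 the difference was -5.42 points (-12.2 to 1.55, adjusted p = 0.383, Fisher's exact test). In the remaining DNA-PKcs-/- pool the share was 12.8% (10.2 to 15.9), between those of the PQR/PQR libraries, and with the whole pool in place of replicate 5 the difference shrank to -1.24 points.

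Single inserted bases were listed in 0 of 122 junctions of DNA-PKcs-/- replicate 5, at which up to 2.46% cannot be told from 0 (3 counts). They were listed in 58 of 789 junctions of PQR/PQR replicate 1 (7.35%, 5.73 to 9.39), 8 of 144 of PQR/PQR replicate 2 (5.56%, 2.84 to 10.6) and 20 of 529 of the remaining DNA-PKcs-/- pool (3.78%, 2.46 to 5.77). This length was singled out after its values were seen and was not tested. Insertions of 5 or more bases were found in 4, 17 and 2 junctions (3.28%, 2.15% and 1.39%). Of the single inserted bases in PQR/PQR replicate 1, 21 were A, 21 T, 11 G and 5 C, while its single MH bases were G in 83 of 220 joins, A in 50, T in 44 and C in 43. The 8 single inserted bases of PQR/PQR replicate 2 were 1 A, 3 T, 2 G and 2 C. G or C made up 45.9% of all inserted bases in DNA-PKcs-/- replicate 5, 45.4% in PQR/PQR replicate 1 and 54.1% in PQR/PQR replicate 2.

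Inverted Sε junctions were rare in all 3 libraries. They numbered 6 of 123 in DNA-PKcs-/- replicate 5 (4.88%, 2.25 to 10.2), 37 of 794 in PQR/PQR replicate 1 (4.66%, 3.40 to 6.36) and 11 of 144 in PQR/PQR replicate 2 (7.64%, 4.32 to 13.2). The difference of DNA-PKcs-/- replicate 5 was 0.218 points from PQR/PQR replicate 1 (-2.91 to 5.72) and -2.76 points from PQR/PQR replicate 2 (-8.87 to 3.54), and neither passed (adjusted p = 0.954 and 0.743, Fisher's exact test). Of the 6 inverted junctions of DNA-PKcs-/- replicate 5, 3 lay on the far side of the window, against 1 of 37 and 0 of 11. Median prey ends of inverted junctions were at 114512028, 114514860 and 114514766, and those of deletional junctions at 114514034, 114514304 and 114514189. Among deletional junctions alone, the share on the far side was 11 of 117 in DNA-PKcs-/- replicate 5 (9.40%), against 13 of 757 (1.72%) for PQR/PQR replicate 1 and 0 of 133 for PQR/PQR replicate 2, and the difference was still called.

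The bait end gives the place in Sμ of those junctions that the assay can list. The shortest aligned bait was 31 bp in each library, and the AflII cut described below limits the other side. The aligned bait of Sε junctions had a median of 55.5 bp in DNA-PKcs-/- replicate 5, 60 bp in PQR/PQR replicate 1 and 58 bp in PQR/PQR replicate 2, counted from the first base of the nested primer. A bait of 50 bp or more was found in 65.6% (80 of 122), 67.7% (534 of 789) and 64.6% (93 of 144) of junctions. The difference of DNA-PKcs-/- replicate 5 was -2.11 points from PQR/PQR replicate 1 (-11.5 to 6.42) and 0.990 points from PQR/PQR replicate 2 (-10.5 to 12.3), and neither passed (adjusted p = 0.814 and 0.994, Fisher's exact test).

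Few bait ends lay past the AflII site. AflII, used to cut away unrearranged DNA, recognises CTTAAG, which the bait holds once, from base 104 to base 109. A junction whose bait keeps this site can be cut as well. The bait ends therefore do not show how often Sμ was joined past the site. Bait ran past this site in 3 of 122 Sε junctions of DNA-PKcs-/- replicate 5 (2.46%), 14 of 789 of PQR/PQR replicate 1 (1.77%) and 1 of 144 of PQR/PQR replicate 2 (0.694%). In the remaining DNA-PKcs-/- pool it did so in 109 of 513 (21.2%, 17.9 to 25.0), where the median bait was 68 bp and 77.0% of baits had 50 bp or more. With the whole DNA-PKcs-/- pool in place of replicate 5, the difference in baits of 50 bp or more was 8.67 points from the mean of the PQR/PQR libraries (adjusted p = 0.0303 and 0.0855, Fisher's exact test), and was not called. Whether its prey values move with the bait range was not tested.

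**Figure D4:**
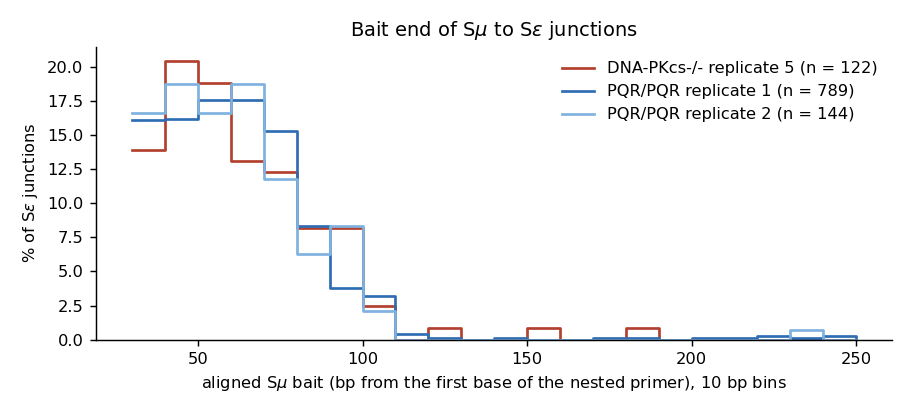
Percent of Sε junctions (y axis) in 10 bp bins of aligned Sμ bait, counted in bp from the first base of the nested primer (x axis), for DNA-PKcs-/- replicate 5 (red), PQR/PQR replicate 1 (dark blue) and PQR/PQR replicate 2 (light blue). Nearly all bait ends lie before the AflII site at bases 104 to 109, with 3 of 122, 14 of 789 and 1 of 144 past it.

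Single bait ends were used by few junctions. The most used bait end of PQR/PQR replicate 1 was base 77 of the bait (27 junctions, 3.42%), which had 3 junctions in DNA-PKcs-/- replicate 5 and 4 in PQR/PQR replicate 2. In PQR/PQR replicate 2 it was base 64 (8 junctions), with 22 junctions in PQR/PQR replicate 1 and 1 in DNA-PKcs-/- replicate 5. In DNA-PKcs-/- replicate 5 it was shared by 4 bait ends with 5 junctions each, among them base 55, which had 26 junctions in PQR/PQR replicate 1 and 3 in PQR/PQR replicate 2. Median bait was 51.5 bp for direct joins and 55 bp for MH joins in DNA-PKcs-/- replicate 5, and 61 and 59 bp in PQR/PQR replicate 1.

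Direct joins, insertions and MH of 3 bp or more were compared between Sε and Sγ1 within each library, and no difference passed. In DNA-PKcs-/- replicate 5 direct joins made up 24.4% in Sε and 13.3% in Sγ1 (28 of 211), a difference of 11.1 points (2.58 to 20.3, adjusted p = 0.0804, Fisher's exact test). The difference was 1.66 points in PQR/PQR replicate 1 (-4.46 to 7.27) and -3.57 points in PQR/PQR replicate 2 (-16.2 to 8.16). The test of whether the Sε minus Sγ1 difference itself was larger in DNA-PKcs-/- replicate 5 gave an adjusted p of 0.203 against PQR/PQR replicate 1 and 0.146 against PQR/PQR replicate 2, by a likelihood ratio test of the interaction in a logistic model.

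For the share of MH joins with 3 bp or more, the Sε minus Sγ1 difference was -10.0 points in DNA-PKcs-/- replicate 5 (-22.5 to 3.01), -5.55 points in PQR/PQR replicate 1 (-13.8 to 2.27) and 8.12 points in PQR/PQR replicate 2 (-8.15 to 22.2). Insertion shares differed between Sε and Sγ1 by -3.31, 1.73 and 0.722 points. None of these 9 comparisons between regions and none of the 6 interactions passed, and the smallest adjusted p among them was that of the direct share of DNA-PKcs-/- replicate 5, by Fisher's exact test.

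**Figure D5:**
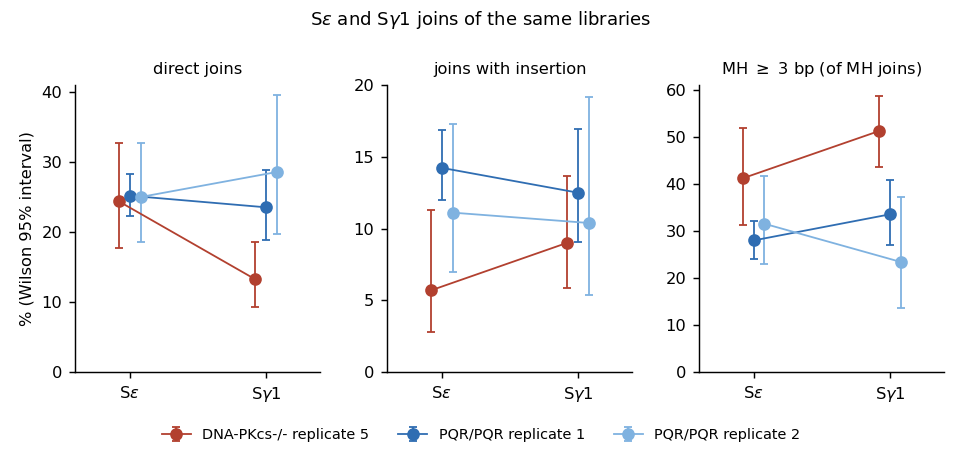
Direct joins, joins with an insertion, and MH of 3 bp or more among MH joins, in percent (y axes) for Sε and Sγ1 (x axis), with Wilson 95% intervals and a line joining the values of a library (DNA-PKcs-/- replicate 5 red, PQR/PQR replicate 1 dark blue, PQR/PQR replicate 2 light blue). The direct shares of the 3 libraries meet in Sε, between 24.4% and 25.2%, and lie at 13.3%, 23.5% and 28.6% in Sγ1.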

How the data were processed

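The deposited workbooks give, for each library and pool, a sheet of junction counts, lists of single junctions and lists of prey positions. Bowtie2 and mm9 were used, per the submitters' processing notes, with the junction caller and its filters not given in the sources used here. Junction counts, read bounds, coordinates and sequences were used unchanged, as deposited by the authors.

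MH was computed as the overlap of the bait and prey alignments within a read, and the classes equalled the count sheet apart from lines not used here. Overlaps of alignments depend on the aligner, and the shortest listed prey was 25 bp. Orientation, position and the shares of classes come from the sheets with all junctions, the rest from the lines. Shares have Wilson 95% intervals and differences have Newcombe intervals, both for counting error only. Libraries were compared by two-sided Fisher's exact tests, MH length classes by an exact test of a 2 by 4 table, and Sε with Sγ1 also by the interaction in a logistic model (statsmodels 0.14.6, scipy 1.17.1), adjusted over 36 tests. The tests were checked on simulated counts of independent junctions, which leaves unchecked whether the junctions of a library are independent.

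Named items were the 3 most used prey positions of each library, the longest MH and insertion, the 5 most frequent overlaps, 6 motifs and reads of each kind. The junctions, lists and tests were chosen with earlier results of these data known. Alternatives left out each PQR/PQR library, used the pools, collapsed repeats, required 50 bp of prey, kept deletional junctions, added large insertions and moved the MH, bait and position limits. Leaving out junctions found in 2 libraries was added after seeing the data.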

Additional observations from a re-analysis of the deposited data

Results flagged for a closer look

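Reads with a further segment between the Sμ bait and the Sε prey were listed in the pools, outside the 3 libraries' own lists, which held 0 of 122, 0 of 789 and 0 of 144 such reads. Once replicate 5 is taken out of the DNA-PKcs-/- pool, 16 of the other 529 junctions were of this kind (3.02%, Wilson 95% CI 1.87 to 4.86), where the authors' alignment places the segment joined to Sε in Sγ1 (13 reads, at 11 different Sε prey ends) or elsewhere in Sμ (3 reads, at 1 prey end). In the PQR/PQR pool outside its libraries there were 20 among 21, with the segment in Sγ1 (14 reads, 12 prey ends), Sμ (5 reads) or Sε (1 read). Switching from Sμ to Sγ1 and on to Sε is a known route to IgE.

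One such read of the PQR/PQR pool is printed with its Sγ1 segment, chr12:114571943-114571969 of mm9, in capitals, ahead of an Sε prey at 114514298.
Sμ, Sγ1 and Sε: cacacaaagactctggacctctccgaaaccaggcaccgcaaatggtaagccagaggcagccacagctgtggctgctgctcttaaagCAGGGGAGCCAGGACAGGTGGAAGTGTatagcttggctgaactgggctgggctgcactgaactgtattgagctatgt
These 20 PQR/PQR reads, and the only other junction of that remainder, came from the run of DNA-PKcs-/- replicate 5 and PQR/PQR replicate 1 and began with the same 6 bases as 781 of the 789 reads of PQR/PQR replicate 1. None of the 16 DNA-PKcs-/- reads came from that run. Median Sγ1 segments were 130 and 63 bp long. Since the libraries' own lists hold none, these reads give no rate per library, and a difference between genotypes was not tested.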

How the results depend on the processing

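The share on the far side of the window was called under all 10 of its alternatives, from 5.98 to 18.3 percentage points. Those that use a pool count the libraries' own junctions again, so they are not separate tests. The other measures stayed short of a call under all but 1 of 44. The values below are DNA-PKcs-/- minus the mean PQR/PQR share in points. The MH share, 11.4 as reported, became a call at 2 bp or more (19.8). With the DNA-PKcs-/- pool it was 15.6 (adjusted p from 1.59e-06 to 0.0790, Fisher's exact test) and for deletional junctions 7.11, and neither was called. The inverted share, -1.27 as reported, turned to 0.101 with the DNA-PKcs-/- pool and ran from -2.76 to 0.218 when a PQR/PQR library was left out. The share with 50 bp or more of bait, -0.558 as reported, turned to 8.67 with the DNA-PKcs-/- pool, 1.00 for deletional junctions, 1.06 for bait of 100 bp or more and 0.209 without junctions found in 2 libraries, and ran from -2.11 to 0.990 without each PQR/PQR library. The causes of these changes were not tested. For the inverted and bait shares, the intervals of the differences between the libraries themselves include 0. For the MH share the interval includes 0 against PQR/PQR replicate 2 (-4.44 to 23.3) but not against PQR/PQR replicate 1 (2.49 to 24.5). No paired analysis was possible because the groups share no replicate number. The 123 Sε junctions of DNA-PKcs-/- replicate 5 limit the precision, and only 1 library of that genotype was analysed.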
